A study of Homo sapiens with 22 samples.

Results

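This account follows 10 genes of bone morphogenetic protein (BMP) and activin signalling through 22 RNA-seq libraries of RPTEC, a line of human renal proximal tubule epithelial cells immortalized with hTERT. The genes were taken by symbol from a table of 36859 genes: the ligands BMP2, BMP4, BMP6, BMP7 and INHBA, the secreted antagonists CHRD, CHRDL1, GREM1 and FST, and the target gene ID1. Of the 10, 8 have a row in the table and BMP2 and BMP6 were not analysed here. Of those 8, 6 passed the filter for testing, which asked that 2 or more libraries hold 10 or more normalized counts, and BMP7 and FST did not.

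The 22 libraries form 11 groups of 2. In 2% serum there were WT cells, the SETD2 knockout clones KO1 and KO2, and a line labelled KO2 rescue, all untreated. A further group in 2% serum was WT cells given TGF-β at 10 ng/ml for 72 h. In 10% serum there were Rescue1 and Rescue2, which are clones of SETD2 knockout cells carrying full-length SETD2 on a lentivirus, and WT cells transduced with eGFP as the control vector, SOX2, OCT2 or PRRX1. SETD2 is the histone methyltransferase that writes trimethylation of lysine 36 on histone H3. KO1, KO2 and each rescue line grew from 1 colony each, so a clone and its genotype cannot be told apart in any 1 line, and the labels do not say whether the duplicates were separate cultures.

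BMPs and activins are secreted dimers of the TGF-β superfamily. They bind receptor kinases on the cell surface, which phosphorylate SMAD1, SMAD5 and SMAD9 for BMPs, and SMAD2 and SMAD3 for activins, and the SMADs carry the signal to the genome. Antagonists such as gremlin, chordin and follistatin bind the ligands outside the cell and keep them from their receptors. BMP7 is known in the kidney as a ligand of epithelial cells, and the ID genes are among the best known transcriptional targets of BMP signalling.

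Values are normalized counts recovered from the deposited log2 values, and they limit what a level of 0 can mean. Everyday genes were listed at 0 in some libraries: CUL1 ran from 0 to 176 and RAB14 from 0 to 166, while ACTB ran from 59291 to 189928. Of 9428 annotated genes with a mean over 50, 243 (2.58%) were at 0 in 1 duplicate of a group and over 30 in the other, and BMP4 and GREM1 are among them. A gene at 0 is therefore called listed at 0 here, values are given per library, no fold is given against a group at 0, fitted changes that take in a library at 0 depend on the added count of 1, and levels of different genes are not compared. What produced these zeros was not tested.

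SETD2 itself was at 1852 and 2061 normalized counts in WT, at 1046 to 1130 in the 4 KO libraries, at 9764 to 10445 in the 4 libraries of Rescue1 and Rescue2, and at 819.6 and 834 in the libraries labelled KO2 rescue. The last pair lies below KO2 itself (log2 change −0.345 ± 0.068 SE, adjusted p = 0.00382), so the SETD2 transcript goes against that label. A supplementary table of the study heads the 2 knockout clones the other way round from the labels of the libraries, and the labels were followed here. Among markers of proximal tubule, 6 to 8 of 12 reached 10 normalized counts in every library, and among the defining ones LRP2 was at 2.29 or less and SLC22A6 was listed at 0 in all 22. Because the RNA comes from whole cultures, fewer cells of a kind and less RNA per cell cannot be told apart.

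Promoters are shown for the 4 members the results turn on most. GREM1 and CHRDL1 were both called higher in the 2 knockout clones, but only CHRDL1 was called higher again in the rescue clones. CHRD and ID1 were both called higher in the rescue clones than in the knockout clones and in WT eGFP than in WT. Against WT, ID1 was called lower in both knockout clones. CHRD was called higher there on no more than 4.65 normalized counts against 0, and neither call held at a pseudocount of 5. Each promoter runs from 250 bases before to 50 bases after the start of the gene, 5′ to 3′ on its own strand, from RefSeq on GRCh38.p14. Capitals mark GGCGCC, a GC-rich element that SMAD1 and SMAD5 can bind and that reads the same on both strands. GREM1 lies at chr15:32717754-32718053 (plus strand), CHRDL1 at chrX:110795768-110796067 (minus), CHRD at chr3:184379804-184380103 (plus) and ID1 at chr20:31605039-31605338 (plus).
GREM1: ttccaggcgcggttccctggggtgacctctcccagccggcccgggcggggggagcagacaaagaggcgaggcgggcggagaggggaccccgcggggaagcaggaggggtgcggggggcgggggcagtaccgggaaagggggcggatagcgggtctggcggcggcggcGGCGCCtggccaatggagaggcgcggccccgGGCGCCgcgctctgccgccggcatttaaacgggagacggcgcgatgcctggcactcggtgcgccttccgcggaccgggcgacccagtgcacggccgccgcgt
CHRDL1: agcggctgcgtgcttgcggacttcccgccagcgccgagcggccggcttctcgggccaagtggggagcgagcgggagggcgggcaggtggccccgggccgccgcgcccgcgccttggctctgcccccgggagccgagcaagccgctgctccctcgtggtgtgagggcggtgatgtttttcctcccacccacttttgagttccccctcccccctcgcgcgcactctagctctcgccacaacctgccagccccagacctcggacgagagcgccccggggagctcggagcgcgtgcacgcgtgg
CHRD: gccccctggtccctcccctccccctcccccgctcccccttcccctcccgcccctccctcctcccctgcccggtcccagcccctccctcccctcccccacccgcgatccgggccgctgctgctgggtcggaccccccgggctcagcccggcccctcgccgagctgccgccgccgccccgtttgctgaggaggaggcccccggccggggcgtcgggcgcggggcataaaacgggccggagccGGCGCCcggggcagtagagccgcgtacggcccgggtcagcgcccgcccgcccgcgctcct
ID1: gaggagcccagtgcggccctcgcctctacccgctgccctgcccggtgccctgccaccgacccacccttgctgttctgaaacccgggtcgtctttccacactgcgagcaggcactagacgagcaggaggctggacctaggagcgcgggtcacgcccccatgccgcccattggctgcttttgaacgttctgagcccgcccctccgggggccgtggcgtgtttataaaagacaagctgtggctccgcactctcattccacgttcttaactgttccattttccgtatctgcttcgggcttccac

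GREM1 holds 2 matches, which begin 83 and 52 bases before the start, CHRD holds 1, and CHRDL1 and ID1 hold 0 in this window. RefSeq lists another GREM1 promoter, at chr15:32718234-32718533, which is not shown and holds 0. GGCGCC occurs in 6748 of 35116 RefSeq promoters of the same length (19.2%). CAGAC, which SMAD3 and SMAD4 can bind, read on either strand, occurs in 45.3% of them, 2 times in the GREM1 window and 1 time in that of CHRDL1. TATAAA occurs in 11.5% of all promoters and in the ID1 window, where its forms on the 2 strands overlap. These matches are a description of letters, and binding was not measured.

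The tests came from 1 limma fit of all 22 libraries on log2(normalized count + 1) over 14585 genes, folds are 2 to the power of the fitted change, and a call needed an adjusted p (Benjamini-Hochberg over all genes tested) under 0.05 together with a log2 change of more than 1 in either direction. TGF-β called 3 of the 6 tested members, 1 higher and 2 lower, where 7.84% of all tested genes were called, and the members' median log2 change was −0.28. KO1 against WT called 4 members (25% of all genes; median 1.25), 3 higher and 1 lower. KO2 against WT called 5 (16.3%; median 2.12), 4 higher and 1 lower. CHRD is among those called higher in both clones, though it passed the filter through the libraries in 10% serum alone. In 2% serum it was at 4.65 normalized counts or less.

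The 2 clones differed from each other in 2 of 6 members (6.97% of all genes; median −0.25), and both clones together differed from TGF-β-treated WT cells in 5 (20.2%; median 2.56), among them CHRD at the same low counts. Rescue1 and Rescue2 against the 2 clones called 4 members, all higher (23.3%; median 2.11), and against WT eGFP, which shares their serum, 2 (13.1%; median −0.27). The libraries labelled KO2 rescue differed from KO2 in 1 member (4.17%; median 0.49), and WT eGFP from WT in 4, all higher (12.7%; median 2.30). Over all tested genes the median lay between −0.0165 and 0.0303 in each of the 12 comparisons.

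SOX2, OCT2 and PRRX1 against eGFP called 0 members each with limma, where 0.0206%, 0.0343% and 0.0411% of all genes were called. At an unadjusted p under 0.05 the counts were 0, 0 and 1, the last being GREM1, which was listed at 0 in 1 PRRX1 library. TGF-β, KO1, KO2 and WT eGFP were all set against the same 2 WT libraries. A fit of no more than the libraries being compared, which leaves few residual degrees of freedom, called 0 members for TGF-β, 2 each for KO1, KO2 and WT eGFP against WT, and 0 between the clones.

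**Figure D1:**
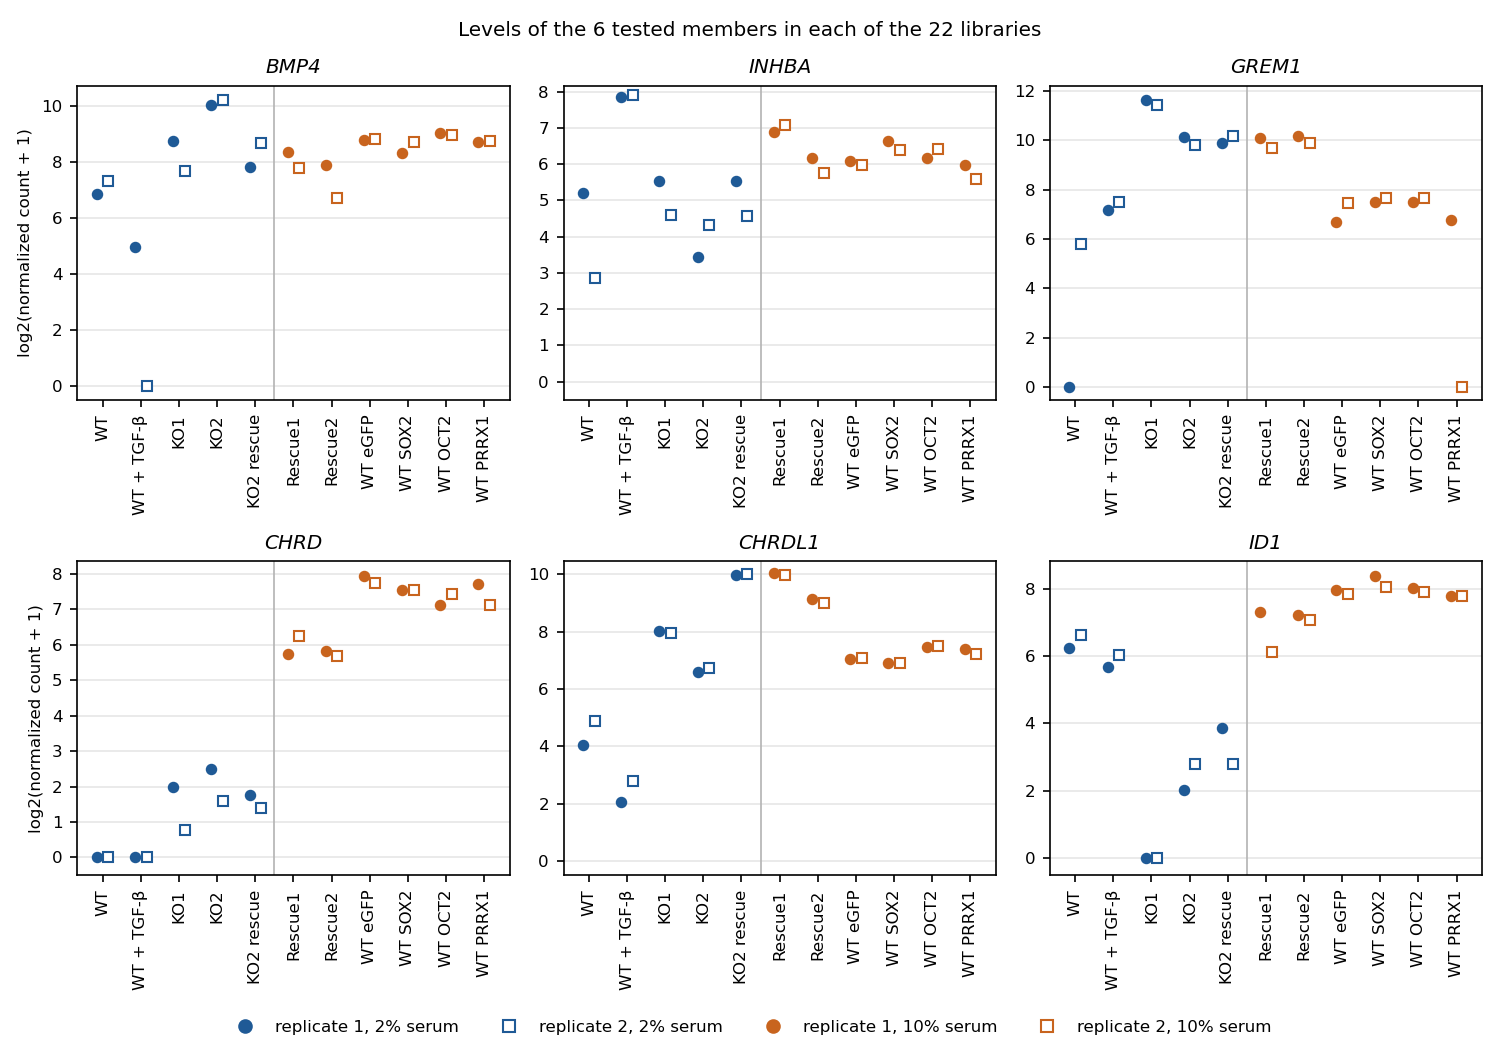
Each panel plots 1 member, with the 11 groups on the x axis and log2(normalized count + 1) on the y axis; circles are replicate 1, squares replicate 2, blue is 2% serum and orange 10% serum. CHRD lies between 51.0 and 247 normalized counts in all 12 orange libraries and at 4.65 or less in all 10 blue ones, and GREM1 peaks in KO1.

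**Figure D2:**
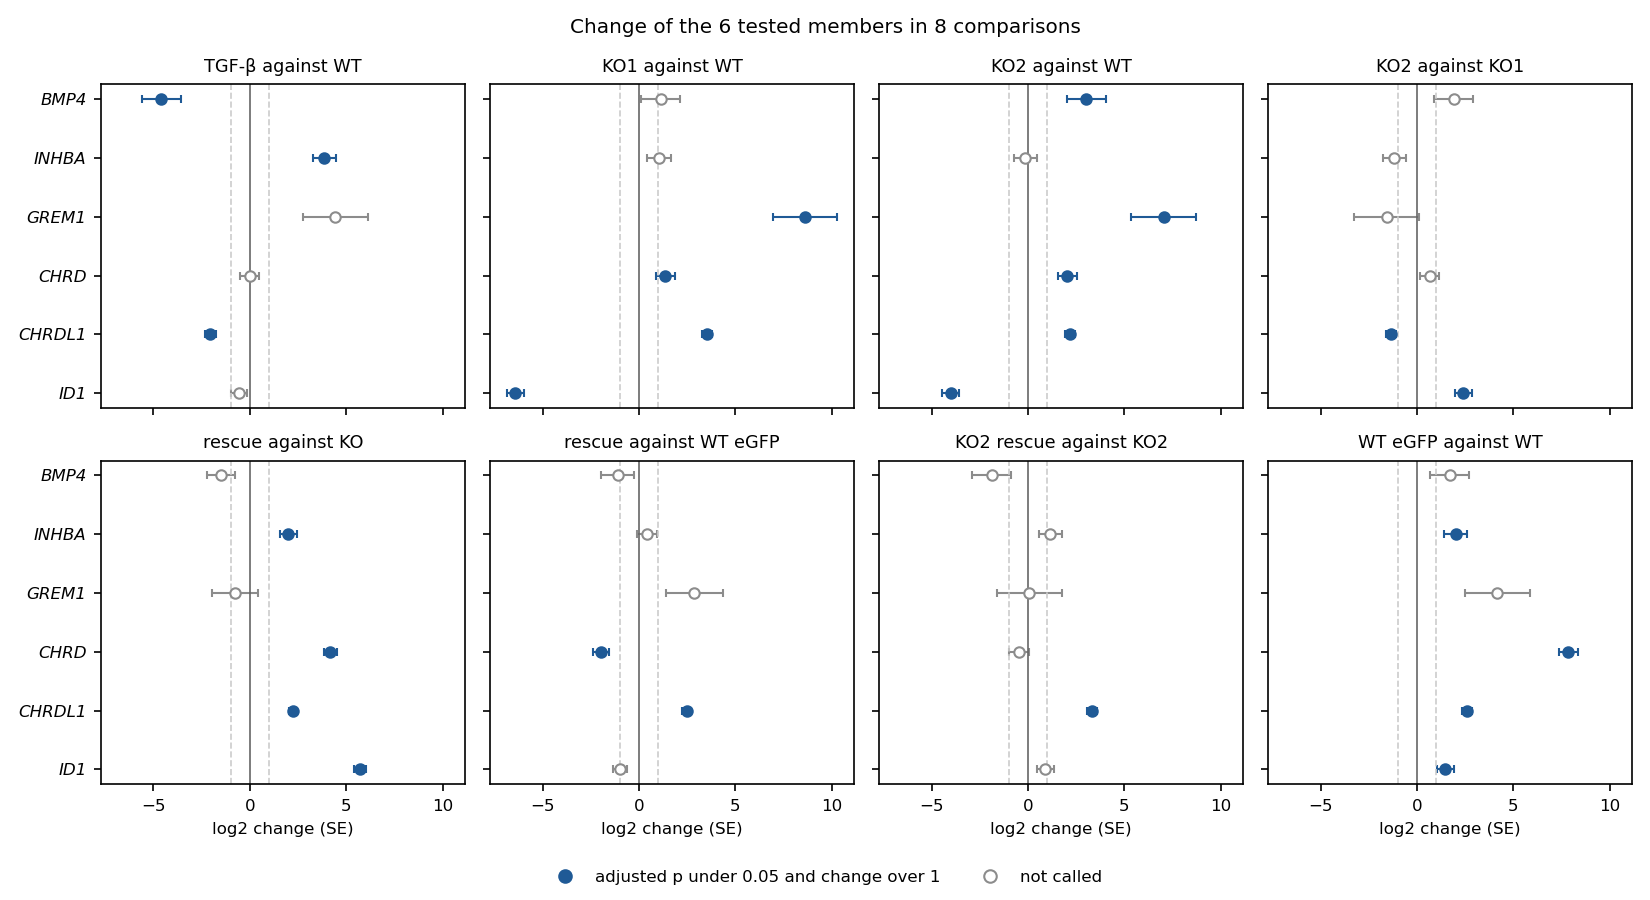
Each panel plots the log2 change of the 6 tested members in 1 comparison with its standard error; filled points were called and open points were not, and dashed lines mark a change of 1. GREM1 has the widest errors, and values for CHRD and ID1 against a group listed at 0 depend on the added count of 1.

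BMP4, a ligand that patterns the ureteric bud and many other epithelia, rose in KO2 and fell under TGF-β. The gene lies on chromosome 14, 53949736 to 53958761, minus strand (GRCh38). It was at 114 and 160.4 normalized counts in WT, at 1058 and 1183 in KO2, and at 30.4 and 0 in TGF-β-treated WT cells. The KO2 libraries lie above all others, and the TGF-β libraries below all others.

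For BMP4 in KO2 the log2 change was 3.04 ± 1.01 (SE; adjusted p = 0.0346). The call was lost when any 1 of the 4 WT and KO2 libraries was left out, at log2 changes of 2.79 to 3.28, and with a pseudocount of 0.5. For TGF-β the log2 change was −4.61 ± 1.01 (adjusted p = 0.0049). Its size turns on the library at 0: without TGF-β replicate 2 it was −2.12, and without replicate 1 −7.09, both still called. With only the libraries compared the fall under TGF-β was not called (adjusted p = 0.298).

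KO1 held 427 and 206 normalized counts of BMP4, a log2 change of 1.12 ± 1.01 from WT that was not called (adjusted p = 0.411). The difference between KO2 and KO1 was not called either (1.91 ± 1.01, adjusted p = 0.227), though it was on the deposited log2 values, where the adjusted p alone made the call. Both clones together lay above TGF-β-treated cells (6.69 ± 0.87, adjusted p = 2.27e-05), at 4.20 without TGF-β replicate 2 and 9.17 without replicate 1.

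In the libraries labelled KO2 rescue BMP4 was at 226 and 412, below both KO2 libraries, without a call (−1.87 ± 1.01, adjusted p = 0.313) except on the deposited log2 values. Rescue1 held 327 and 219, and Rescue2 236 and 104. Against the mean of the clones that was −1.49 ± 0.71 (adjusted p = 0.105), which was called with a pseudocount of 5, with only the libraries compared and on the deposited log2 values. Against KO2 alone it was −2.44 ± 0.87 and called. The 8 libraries of transduced WT cells ran from 316 through a median of 433 to 524, above both WT libraries, and WT eGFP against WT was not called (1.70 ± 1.01, adjusted p = 0.25) but was with only the libraries compared (adjusted p = 0.0495) and on the deposited log2 values (adjusted p = 0.00785).

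INHBA encodes the βA subunit, which forms activin A as a dimer and inhibin A with the α subunit. It lies on chromosome 7, 41667168 to 41705834, minus strand. Its pattern was led by TGF-β: it was at 229.6 and 239 normalized counts in TGF-β-treated cells, against 35.7 and 6.20 in WT, and the next highest library held 134. The log2 change was 3.86 ± 0.61 (adjusted p = 0.000395). Leaving out WT replicate 1 gave 5.03 and leaving out replicate 2 gave 2.68, both called. With only the libraries compared the rise was not called (adjusted p = 0.16).

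INHBA was not called in either knockout clone against WT. KO1 held 45.2 and 23.1 normalized counts and KO2 9.81 and 19.2, ranges that overlap those of WT. The log2 changes were 1.04 ± 0.61 (adjusted p = 0.195) and −0.14 ± 0.61 (adjusted p = 0.909). KO1 gained a call at 2.21 without WT replicate 1 and stood at −0.14 without WT replicate 2. Both clones lay below the TGF-β-treated cells (−3.41 ± 0.53, adjusted p = 0.00011).

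In 10% serum INHBA was higher. The 12 libraries ran from 47.3 through a median of 71.2 to 134, and the 8 libraries in 2% serum without TGF-β from 6.20 through 22.9 to 45.6, with no overlap. Rescue1 held 117 and 134 and Rescue2 70.7 and 52.9, which is 3.99 times the clones (log2 change 2.00 ± 0.43, adjusted p = 0.00143). WT eGFP at 67.2 and 62.0 was called against WT (2.01 ± 0.61, adjusted p = 0.0233), and rescue against WT eGFP was not (0.44 ± 0.53, adjusted p = 0.597). The eGFP call fell away without WT replicate 2 (0.84) and without either WT eGFP replicate (1.96 and 2.07). Serum, transduction and the time in culture cannot be told apart between these groups.

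BMP7 was listed at 0 in all 22 libraries. With everyday genes also at 0, no more can be said than that it is listed at 0. BMP2 (chromosome 20) and BMP6 (chromosome 6) were not analysed here.

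GREM1 encodes gremlin, a secreted binder of BMP2, BMP4 and BMP7 that restrains BMP4 around the ureteric bud in the developing kidney. It lies on chromosome 15, 32718004 to 32745106, plus strand. It rose in both clones: KO1 held 3127 and 2771 normalized counts and KO2 1109.5 and 887, against 0 and 55.3 in WT. For KO1 the log2 change was 8.62 ± 1.68 (adjusted p = 0.000804), and for KO2 7.05 ± 1.68 (adjusted p = 0.005). With only the libraries compared neither was called (adjusted p = 0.085 for KO1 and 0.126 for KO2).

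The size of both rests on the WT library listed at 0. Without WT replicate 1, and so against 55.3 alone, GREM1 was 5.71 higher on the log2 scale in KO1, still called, and 4.14 higher in KO2, no longer called. Without WT replicate 2 the values were 11.5 and 9.96. The KO1 libraries hold the 2 highest values of the series, and both KO2 libraries lie below them. KO2 against KO1 was not called (−1.57 ± 1.68, adjusted p = 0.589) but was on the deposited log2 values (adjusted p = 0.000129).

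TGF-β-treated cells held 145 and 178 normalized counts of GREM1, above both WT libraries, without a call (4.43 ± 1.68, adjusted p = 0.0906). It was called without WT replicate 2, at 7.34, and on the deposited log2 values (adjusted p = 0.0431), and was 1.52 without WT replicate 1. All 4 KO libraries lay above both TGF-β libraries (3.40 ± 1.46, adjusted p = 0.0845), which was called with a pseudocount of 5, with only the libraries compared, and on the deposited log2 values.

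GREM1 stayed near its KO2 level in the rescue lines. Rescue1 held 1096 and 819, Rescue2 1147 and 948, and the libraries labelled KO2 rescue 932 and 1153, beside the 1109.5 and 887 of KO2. Rescue against the mean of the clones was −0.78 ± 1.19 and not called (adjusted p = 0.627), though it was called lower on the deposited log2 values (adjusted p = 0.000647), and against KO2 alone it was 0.0031. An SE of 1.19 on the log2 scale leaves room for a change in either direction. WT eGFP held 101 and 177, SOX2 180.5 and 199, OCT2 181 and 198, and PRRX1 107 and 0, all below the 4 rescue libraries; rescue against WT eGFP was not called (2.89 ± 1.46, adjusted p = 0.158) but was with a pseudocount of 5, with only the libraries compared and on the deposited log2 values.

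The summed level of markers of fibroblasts and other stromal cells was high in the clones, where GREM1 and CHRDL1 rose. The sum did not follow GREM1 and CHRDL1 in every group, and its markers did not move together. Summed over the 8 markers, WT held 12452 and 846, TGF-β-treated cells 47814 and 46403, KO1 236651 and 223505, KO2 103687 and 100073, the libraries labelled KO2 rescue 41519 and 39189, and Rescue1 and Rescue2 between 830 and 1536. Of the 8, 5 or 6 reached 10 normalized counts in the KO libraries, and COL3A1 was listed at 0 in KO1, Rescue1 and Rescue2. The sum in KO was almost all DCN. COL1A1 was at 11919 and 532 in WT, 1042 and 815 in KO1, and 3751 and 3520 in KO2. COL1A2 was at 3.27 to 5.26 in the KO libraries against 1.24 and 4.30 in WT, and PDGFRB overlapped WT. LUM, PDGFRA and THY1 lay above WT in both clones, and THY1 was higher still in the transduced WT lines, at 1222 to 2936. CHRDL1 was lower with TGF-β than in WT and higher in KO2 rescue than in KO2, where the sum went the other way. The sum was mostly COL1A1 with TGF-β (46598 and 45007) and mostly DCN in KO2 and KO2 rescue, so it rests on different genes. The summed level of 6 epithelial markers was 35948 and 38360 in WT, 11998 and 10057 in KO1, and 20590 and 19582 in KO2. It was 28962 and 30537 with TGF-β, 39693 to 40964 in KO2 rescue, 35878 to 40457 in Rescue1 and Rescue2, and 19278 to 23437 in the transduced WT lines, which hold the highest CHRD and ID1. The epithelial sum was mostly KRT8 and KRT19. In Rescue1 and Rescue2 KRT8 was at 22164 to 25190, against 15741 and 16325 in WT. EPCAM was at 438 to 691 in these lines, against 3050 and 2764 in WT. MUC1 was at 4.31 to 19.2 against 493 and 595, and CDH1 at 0.778 or less against 25.5 and 47.5. In KO2 rescue EPCAM was at 1247 and 1306, and MUC1 at 2.19 and 3.80. In Rescue1 and Rescue2 GREM1 was at 819 or more and CHRDL1 at 514 or more, with a stromal sum of at most 1536. The part of these marker shifts in the members' values was not tested.

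CHRDL1 encodes chordin-like 1, a secreted BMP4 antagonist with the cysteine-rich repeats of chordin. It lies on chromosome X, 110673856 to 110795819, minus strand. Of the 6 tested members it had the smallest standard errors and was the most often called, in 9 of 12 comparisons. WT held 15.7 and 28.6 normalized counts, TGF-β-treated cells 3.14 and 5.98, KO1 262 and 246, and KO2 96.6 and 104.5. No 2 of these 4 groups overlap.

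CHRDL1 fell with TGF-β to 0.242 of WT (log2 change −2.05 ± 0.26, adjusted p = 7.11e-05) and rose 11.5-fold in KO1 (3.52 ± 0.26, adjusted p = 5.57e-08) and 4.57-fold in KO2 (2.19 ± 0.26, adjusted p = 1.39e-05). KO2 lay below KO1 (−1.33 ± 0.26, adjusted p = 0.00298). Each of these calls held when any library of the groups was left out. With only the libraries compared the KO1 call held. Those for TGF-β (adjusted p = 0.17), KO2 (0.058) and KO2 against KO1 (0.0909) were lost. Both clones together were 29.9 times the TGF-β-treated cells (4.90 ± 0.23, adjusted p = 2.66e-10).

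CHRDL1 was higher still in the rescue lines: Rescue1 held 1059 and 1004, and Rescue2 563 and 514. That is 4.64 times the clones (2.21 ± 0.19, adjusted p = 1.57e-07) and 5.60 times WT eGFP in the same serum (2.48 ± 0.23, adjusted p = 1.19e-06). The libraries labelled KO2 rescue, in 2% serum and with low SETD2 transcript, held 1010.2 and 1029, 10.1 times KO2 (3.33 ± 0.26, adjusted p = 7.39e-07).

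In order of level, Rescue1 and KO2 rescue overlap, and each later group (Rescue2, KO1, OCT2, PRRX1, eGFP, SOX2, KO2, WT, TGF-β) lies wholly below the one before. SOX2, OCT2 and PRRX1 were not called against eGFP, and the other steps among the transduced WT lines were not tested. Their 8 libraries ran from 119 through a median of 141 to 179. WT eGFP was 6.01 times WT (2.59 ± 0.26, adjusted p = 4.4e-06), a call lost with only the libraries compared (adjusted p = 0.0663).

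CHRD encodes chordin, which binds BMP2, BMP4 and BMP7 and is cut by the tolloid proteases. It lies on chromosome 3, 184380054 to 184390736, plus strand. CHRD differed between the libraries in 2% serum and those in 10% serum. It was listed at 0 in both WT and both TGF-β libraries, at 2.94 and 0.71 in KO1, 4.65 and 2.01 in KO2, and 2.42 and 1.63 in KO2 rescue. In 10% serum it was at 52.9 and 75.4 in Rescue1, 55.9 and 51.0 in Rescue2, 247 and 212 in WT eGFP, and 139.9 to 208 in the SOX2, OCT2 and PRRX1 lines. The 12 libraries in 10% serum and the 10 in 2% serum do not overlap. All 12 in 10% serum come from transduced lines, so serum, transduction and the time in culture cannot be told apart here.

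WT eGFP against WT was called for CHRD, and no fold is given because WT is at 0 (adjusted p = 4.8e-08). Rescue against the clones was called too (log2 change 4.17 ± 0.35, adjusted p = 1.74e-07), a comparison that crosses serum. Within 10% serum the rescue lines held 0.257 of WT eGFP (−1.96 ± 0.43, adjusted p = 0.0031). All 3 calls held without any 1 library.

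CHRD also passed the call rule in KO1 against WT (adjusted p = 0.0406), KO2 against WT (adjusted p = 0.0059) and the clones against TGF-β (adjusted p = 0.00604), on no more than 4.65 normalized counts against 0. At a pseudocount of 5 none of the 3 was called, and no fold is given. The KO1 call was lost without KO1 replicate 1 or either WT replicate, and the KO2 call without KO2 replicate 1.

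FST encodes follistatin, the main extracellular binder of activin. It was listed at 0 in 15 of 22 libraries and reached at most 5.07 normalized counts, in KO2, whose other library held 3.41. It did not pass the filter and was not tested.

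ID1 is a partner of basic helix-loop-helix factors that blocks their binding to DNA, and a direct target of BMP receptors. It lies on chromosome 20, 31605283 to 31606515, plus strand. It fell in both clones: it was listed at 0 in both KO1 libraries and was at 3.07 and 5.94 in KO2, against 73.8 and 96.7 in WT. KO2 held 0.0622 of WT (log2 change −4.01 ± 0.44, adjusted p = 5.38e-06), and KO1 was called lower (adjusted p = 1.97e-08), with no fold since it is at 0. Both calls held without any 1 library. In the same clones BMP4 was at 206 to 1183 normalized counts.

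TGF-β-treated cells held 49.7 and 64.8 normalized counts of ID1, below both WT libraries by a log2 change of −0.57 ± 0.44 that was not called (adjusted p = 0.463). The clones were called below TGF-β-treated cells (adjusted p = 1.52e-07), with no fold since KO1 is at 0. KO2 was called above KO1 (adjusted p = 0.00156), though KO2 holds at most 5.94 normalized counts and the call was lost at a pseudocount of 5.

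ID1 was at 157 and 68.7 in Rescue1 and 147 and 133 in Rescue2, above all 4 KO libraries, across serum. The call against the clones had an adjusted p of 1.23e-09, and no fold is given because KO1 is at 0. The libraries labelled KO2 rescue stayed at 13.5 and 5.89, which was not called against KO2 (0.91 ± 0.44, adjusted p = 0.243). The 8 transduced WT libraries ran from 217 through a median of 243 to 333, and WT eGFP was 2.79 times WT (1.48 ± 0.44, adjusted p = 0.0208). That call was lost without WT replicate 1 (1.29) or either WT eGFP replicate (1.41 and 1.54). Within 10% serum rescue against WT eGFP was not called (−0.97 ± 0.38, adjusted p = 0.0682), and was called without Rescue1 replicate 1 (−1.27) and on the deposited log2 values.

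Of 67 other genes of the pathway in 6 lists, 57 have a row and 42 were tested. TGF-β called 6 of the 42 (5 higher, 1 lower), which is 14.3% where 7.84% of all tested genes were called. KO1 called 20 (10 and 10; 47.6% against 25% of all genes) and KO2 11 (7 and 4; 26.2% against 16.3%). Rescue against the clones called 18 (9 and 9; 42.9% against 23.3%) and the clones against TGF-β 19 (10 and 9; 45.2% against 20.2%). Rescue against WT eGFP called 11 (4 and 7; 26.2% against 13.1%) and WT eGFP against WT 8 (7 and 1; 19% against 12.7%). KO2 against KO1 called 2, both lower (4.76% against 6.97%), the libraries labelled KO2 rescue against KO2 called 5 (2 and 3; 11.9% against 4.17%), and SOX2, OCT2 and PRRX1 against eGFP 0 each. The median change over the 42 lay between −0.41 and 0.43 in each comparison.

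**Figure D3:**
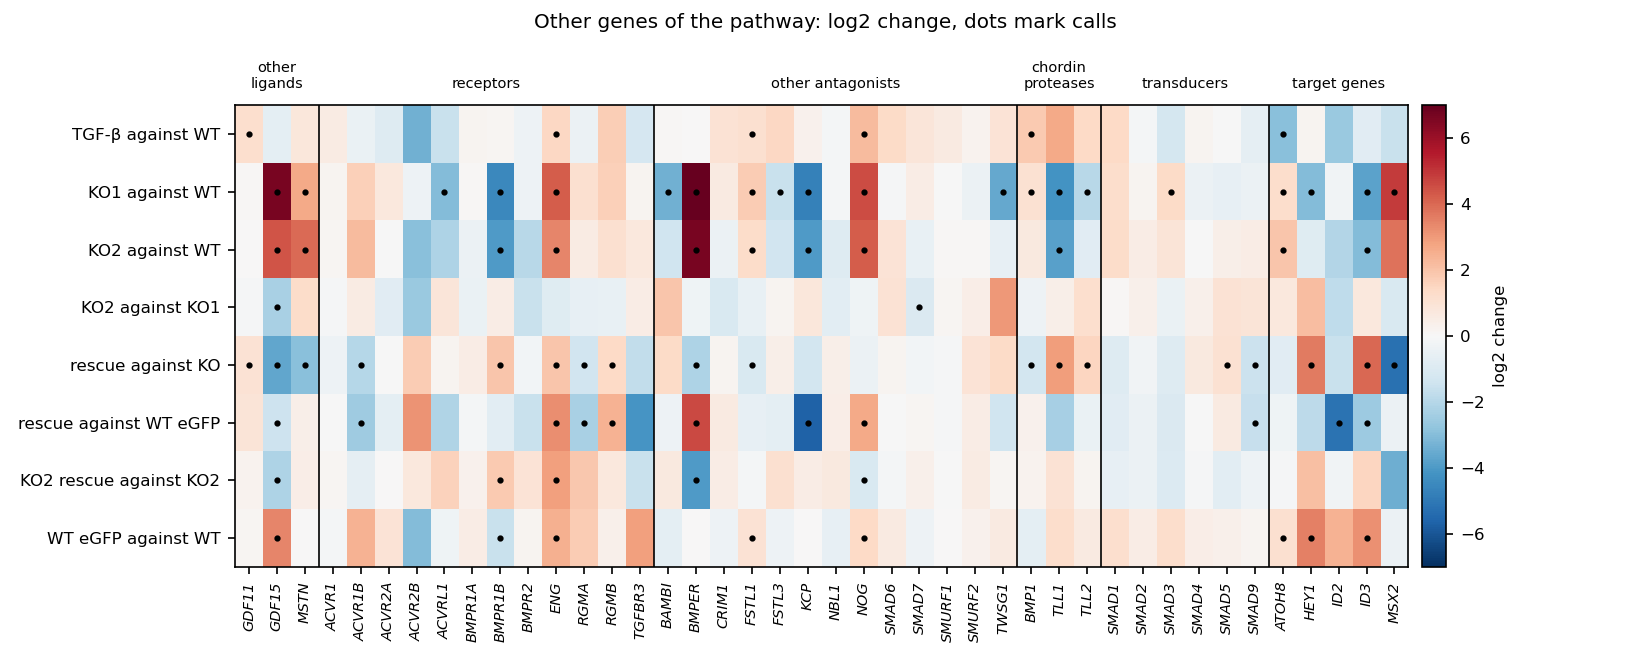
The heat map plots the log2 change of 42 other genes of the pathway (columns, in 6 lists) in 8 comparisons (rows), red for higher and blue for lower, and dots mark the genes called. BMPER, GDF15, NOG, ENG, FSTL1, MSTN and ATOH8 are red and called in both KO1 and KO2 against WT. KCP, BMPR1B, TLL1 and ID3 are blue and called in both.

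Among the other ligands, 3 of 15 were tested. GDF15, a divergent member of the superfamily induced by cell stress, was at 401 and 447 normalized counts in WT, 46059 and 40428 in KO1, and 10408 and 7948 in KO2. The log2 changes were 6.67 ± 0.13 and 4.42 ± 0.13 (adjusted p = 2.2e-14 and 3.36e-12), and KO2 lay below KO1 (−2.25, adjusted p = 4.26e-08). GDF15 fell in rescue against the clones (−3.61, adjusted p = 3.07e-13) and in KO2 rescue against KO2 (−2.16, adjusted p = 5.23e-08), and rose in WT eGFP against WT (3.41, adjusted p = 1.6e-10).

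Among the receptors, 12 of 14 were tested, and 3 were called in KO1 and 2 in KO2, or 25% and 16.7%, where 25% and 16.3% of all genes were called. BMPR1B, a receptor kinase for BMPs, was at 227 and 158 normalized counts in WT, 6.46 and 8.62 in KO1, and 9.33 and 13.4 in KO2. It fell in both clones (−4.49 and −3.96, adjusted p = 7.94e-07 and 4.77e-06). It was also lower in WT eGFP than in WT (−1.56, adjusted p = 0.0136), a call lost without WT replicate 1 or WT eGFP replicate 1. ENG, the co-receptor endoglin, rose from 7.03 and 3.96 in WT to 86.3 and 159.6 in KO1 (4.23, adjusted p = 5.24e-07) and 62.5 and 69.3 in KO2 (3.40, adjusted p = 8.12e-06). It was higher again in KO2 rescue, at 480.4 and 494 (2.87 against KO2, adjusted p = 0.000166). It also rose in WT eGFP against WT (adjusted p = 0.000209) and in rescue against WT eGFP (3.26, adjusted p = 3.57e-06).

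Among the other antagonists and modulators, 13 of 19 were tested, and 7 were called in KO1 (3 higher, 4 lower; 53.8% against 25% of all genes) and 4 in KO2 (3 higher, 1 lower; 30.8% against 16.3%). The 1 called lower in KO2 is KCP, which stands in this list though it is no antagonist of BMPs. BMPER, a secreted modulator of BMP4, was listed at 0 in both WT, both TGF-β and both WT eGFP libraries, and was at 125 and 120.2 in KO1, 80.9 and 120.0 in KO2, and 11.7 to 42.9 in Rescue1 and Rescue2. Both clones were called higher than WT (adjusted p = 4.29e-05 for KO1 and 9.97e-05 for KO2). KCP, a secreted protein of the kidney known to enhance BMP signalling and dampen that of TGF-β, fell from 312 and 324 in WT to 5.86 to 20.4 in the 4 KO libraries (−4.72 and −3.94, adjusted p = 0.000153 and 0.00105). It stayed low in the rescue lines, at 0 to 14.6 against 314 and 345 in WT eGFP (−5.65, adjusted p = 1.36e-05; −6.52 without Rescue1 replicate 1 and −4.79 without Rescue1 replicate 2, both called). Leaving out KO1 replicate 1 gave −5.54 for KCP and leaving out replicate 2 gave −3.90, both called. NOG, the antagonist noggin, rose with TGF-β from 36.6 and 23.3 to 168 and 112 (2.19, adjusted p = 1.32e-05). It rose further in KO1, to 751 and 680 (4.57 against WT, adjusted p = 8.67e-10), and in KO2, to 603 and 538 (4.24, adjusted p = 4.09e-09), and the clones lay above TGF-β-treated cells (2.21, adjusted p = 5.91e-07). SMAD7, the intracellular inhibitor of the receptors, was lower in KO2 than in KO1 (−1.03, adjusted p = 0.000576), a call lost without KO1 replicate 2 or KO2 replicate 1.

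The 3 genes listed as chordin proteases, BMP1, TLL1 and TLL2, were all tested. In KO1 against WT all 3 were called, BMP1 higher (1.05) and TLL1 and TLL2 lower (−4.20 and −1.95), where 25% of all genes were called. In KO2 only TLL1 was called, lower (−3.79), where 16.3% of all genes were called. BMP1, also known as procollagen C-proteinase, rose with TGF-β from 2783 and 1659 to 8025 and 7549 normalized counts (1.86, adjusted p = 1.66e-06). TLL1 was at 156 and 155 in TGF-β-treated cells and at 0 to 2.33 in the 4 KO libraries (−6.63, adjusted p = 4.43e-05). Of the 6 SMAD transducers, 1 was called in KO1 (16.7% against 25% of all genes). In KO2 and with TGF-β 0 were called, where 16.3% and 7.84% of all genes were called.

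Among the other target genes, 5 of 10 were tested and 4 were called in KO1 (2 higher, 2 lower; 80% against 25% of all genes) and 2 in KO2 (1 and 1; 40% against 16.3%). These targets moved both ways against WT. ATOH8 rose from 86.0 and 121 in WT to 258 and 229 in KO1 and 454 and 356 in KO2 (1.24 and 1.96, adjusted p = 0.00888 and 0.000399). MSX2 was called higher in KO1 (4.89, adjusted p = 0.014). ID3 was called lower in KO1 and KO2 (−3.75 and −3.01, adjusted p = 0.00141 and 0.00888), and HEY1 in KO1 (−3.02, adjusted p = 0.0337). ID3 was at 67.2, 61.7, 39.9 and 12.7 in the rescue lines against 0 to 3.76 in the clones (4.02 ± 0.56, adjusted p = 2.89e-05). HEY1 was at 10.1 to 65.0 in the rescue lines against 0, 0, 0 and 19.6 in the clones (3.61, adjusted p = 0.00105). Without KO2 replicate 1 the value for HEY1 was 2.52 and without KO2 replicate 2 it was 4.71, both called. MSX2 moved the opposite way, from 36.3 to 98.3 in the clones to 0, 6.57, 0 and 0 in rescue (−5.20, adjusted p = 0.000689), and stood at −4.47 without Rescue1 replicate 1 and −5.93 without Rescue1 replicate 2, both called.

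ID2 fell in rescue against WT eGFP within 10% serum: it was listed at 0, 0, 0 and 3.37 in the rescue lines and was at 37.8 and 67.0 in WT eGFP (−5.15, adjusted p = 0.000753). ATOH8 fell with TGF-β from 86.0 and 121 to 7.13 and 21.4 (−2.94, adjusted p = 2.69e-05). It was −3.67 without TGF-β replicate 2 and −2.21 without replicate 1, both called. HEY1 rose in WT eGFP against WT, from 5.06 and 9.82 to 75.2 and 113 (3.52, adjusted p = 0.0226), a call lost without WT replicate 1 or either WT eGFP replicate.

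**Figure D4:**
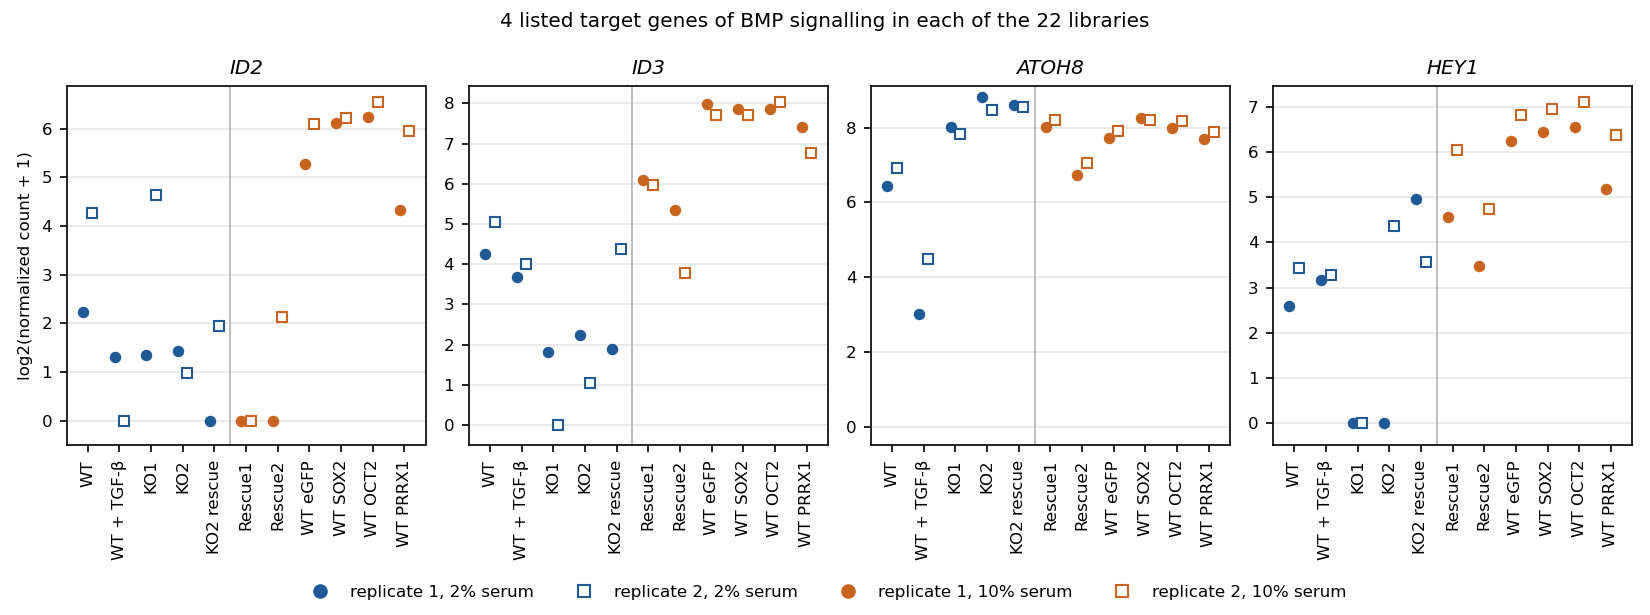
Each panel plots 1 target gene, with the 11 groups on the x axis and log2(normalized count + 1) on the y axis; circles are replicate 1, squares replicate 2, blue is 2% serum and orange 10% serum. ID3 sits between 0 and 3.76 normalized counts in KO1 and KO2 and between 108 and 260.1 in transduced WT cells, and ATOH8 is lowest with TGF-β, at 7.13 and 21.4.

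Patterns over the 11 group means of log2(normalized count + 1) were compared by Pearson correlation, as a description, since the groups share lines, serum and libraries of like depth. The genes most like BMP4 were ATOH8 (r = 0.959), TMEM171 (0.952) and PTGS1 (0.947). For INHBA they were PPM1N (0.920), RCL1 (0.912) and PRR7 (0.886), and for CHRDL1 COL12A1 (0.971), GMPR (0.958) and FOXN3 (0.949). For GREM1 they were ZC3H12B (0.943), R3HDM4 (0.935) and COPZ1 (0.924). For CHRD they were KIF2A (0.972), PHF3 (0.971) and ENSG00000281766 (0.969), and for ID1 TAF1D (0.983), ENSG00000276111 (0.981) and NCL (0.979). Of the 42 other pathway genes only ATOH8 is among these 18.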

How the data were processed

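RNA was measured by RNA-seq (TruSeq Stranded mRNA, 150 bp paired reads) in 22 libraries. The authors estimated transcript levels by salmon against GRCh38 cDNA of Ensembl (release 94), followed by deseq2 (the submitters' processing notes name Salmon 1.9.0 and DESeq2 1.26.0). The deposited values are on a log2 scale, from 11.3 to 21.3, and their transformation is not given in the sources used here. Because all libraries share the lowest value, they were read as variance-stabilized and converted back to normalized counts by inverting that transformation. Totals were 11674491 to 16758645 normalized counts a library, or about 7700000 to 18600000 reads as judged from the spacing of low values, which limits the precision of genes with few counts.

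Groups were taken from the labels. limma 3.58.1 in R 4.3.3 tested log2(normalized count + 1) with a variance trend. All libraries entered 1 model, which held 14585 genes that reach 10 normalized counts in 2 or more libraries. The p-values measure the spread between these libraries, which may be technical. An exact permutation test of 2 against 2 cannot go below 0.333, so none was run. The procedure was tested on simulated data. The members and lists were chosen with earlier results of these data known. Named were all 10 members, SETD2, at most 2 rises and 2 falls per comparison among the called genes of the pathway lists, and the 3 genes most correlated with each tested member. Also named were the pathway genes called in both knockout clones, the target genes called in KO1, and the listed chordin proteases. Symbols and positions come from GENCODE release 44 (33878 of 36859 genes matched), and promoters from RefSeq, for 8 of 10 members. Alternatives were other pseudocounts, filters and scalings, only the libraries compared, a replicate block, the deposited log2 values (called by adjusted p alone), other choices of rescue clones, and each library left out.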

Additional observations from a re-analysis of the deposited data

Results flagged for a closer look

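The 2 knockout clones differed from each other in 2 of the 6 tested members, by the test of KO2 against KO1 in the fit of all libraries. For CHRDL1 the difference was −1.33 on the log2 scale (SE 0.26, adjusted p = 0.00298), with KO2 at 96.6 and 104.5 normalized counts and KO1 at 262 and 246, and both duplicates of KO2 lie below both of KO1. ID1 was called higher in KO2 (adjusted p = 0.00156), with KO2 at 3.07 and 5.94 and KO1 listed at 0 in both libraries. Its fitted difference of 2.41 (SE 0.44) is set by the added count of 1 and is no fold, and the call was lost at a pseudocount of 5 and on the deposited log2 values. Neither was called when only the libraries of the 2 clones entered the fit.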

How the results depend on the processing

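Most results kept their direction and their side of the threshold: of 1008 repeats of single changes 936 did, 41 lost a call, 23 gained one and 8 changed sign, and of 168 repeats of the counts of called members 156 stayed within 1.5 times. With only the libraries compared, the counts were 0 for TGF-β, 2 for KO1, 2 for KO2, 2 for WT eGFP against WT and 0 for KO2 against KO1, where fewer samples enter the fit. A pseudocount of 5 left 1 call for KO2 against KO1. On the deposited log2 values, called by adjusted p alone, the libraries labelled KO2 rescue had 2 calls and rescue against WT eGFP 5. Leaving out 1 library gave 3 to 4 calls for KO2, 2 to 4 for WT eGFP against WT, 3 to 4 for TGF-β and KO1, and 2 to 3 for rescue against WT eGFP.

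Sign changes concerned changes that were not called. CHRD in KO2 against KO1 was −0.0803 with quantile normalization, and GREM1 in rescue against KO2 alone 0.0031. Leaving out 1 library, GREM1 in KO2 rescue against KO2 ran from −0.10 to 0.23, ID1 in OCT2 against eGFP from −0.0090 to 0.12, INHBA in KO1 from −0.14 to 2.21 and in KO2 from −1.31 to 1.04; the cause was not tested. Scaling every library to the same total moved the median of all genes by −0.39 in KO1, 0.37 in rescue against the clones and −0.20 in TGF-β and KO2, and turned the sign of no member. Same-numbered libraries did not deviate together (r from −0.14 to 0.096 over 55 pairs of groups), so the numbers do not pair them, and a replicate block left the counts at 3 for TGF-β, 4 for KO1, 5 for KO2 and 4 for rescue against the clones, and changed none of the others. Of 32 calls of the named pathway genes, 27 held without any 1 library. Levels per kilobase with the longest transcript were not run, because levels of different genes were not compared. Depth limits CHRD in 2% serum, ID1 in the clones and FST throughout.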
